A study of Mus musculus with 6 samples.

Results

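The 49 genes described here, of 21534 in the count table, encode the basement membrane and the receptors that hold epithelial cells on it. They were taken by gene symbol: 12 integrin α chains, 8 integrin β chains, 11 laminin chains, 5 collagen IV chains, 7 other proteins of the membrane and its anchors, 2 laminin receptors outside the integrin family (Dag1 and Bcam) and 4 partners of integrins (Cd151, Fermt1, Tln1 and Ilk). The samples were ileal organoids of wild-type C57Bl/6 mice, grown for 96 hours with 10 µM CHIR99021, a GSK3 inhibitor that switches on Wnt signalling. For the next 24 hours, 3 of the 6 samples received 10 µM all-trans retinoic acid, the hormone-like form of vitamin A, and 3 received the DMSO vehicle alone. Both groups carried the CHIR99021 step, so every level below is that of a culture pushed towards crypt stem cells, which is also the cell type the labels name. Nothing says whether a group's libraries came from different animals or different cultures. Their spread may therefore be technical, and it is this spread alone that the p-values measure.

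A basement membrane is a thin sheet under an epithelium. It is built on a laminin network and a collagen IV network, which nidogens, perlecan and agrin connect to each other and to the cells. A laminin is a trimer of an α, a β and a γ chain, and an integrin is a dimer of an α and a β chain that grips the sheet outside the cell and the cytoskeleton inside it. In the gut, crypts and villi rest on sheets of different laminin makeup, and both the epithelium and the fibroblasts beneath it add chains to them.

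Retinoic acid changed few of these genes. The collagen receptor gene Itga2 and the laminin γ chain gene Lamc1 rose, and both nidogen genes, Nid1 and Nid2, fell. Enough reads for a test were found for 36 members. With retinoic acid, 2 of these were higher and 2 were lower at an adjusted p under 0.05 (edgeR's quasi-likelihood test, Benjamini-Hochberg adjustment over the 13700 genes tested), where 5.37% of all genes tested were higher and 4.09% lower. The members' share called in either direction was 11.1%, near that background. The median log2 fold change of retinoic acid over vehicle was −0.03 for the tested members and −0.01 for all genes tested, and the median size regardless of sign was 0.10 and 0.12. Every retinoic acid library lay above every vehicle library for 3 tested members, against 12.9% of all genes tested, and below for 7, against 12.6%. In the remaining 26 the groups overlapped. In RNA from whole organoids, fewer cells of a type and less RNA per cell cannot be told apart.

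**Figure D1:**
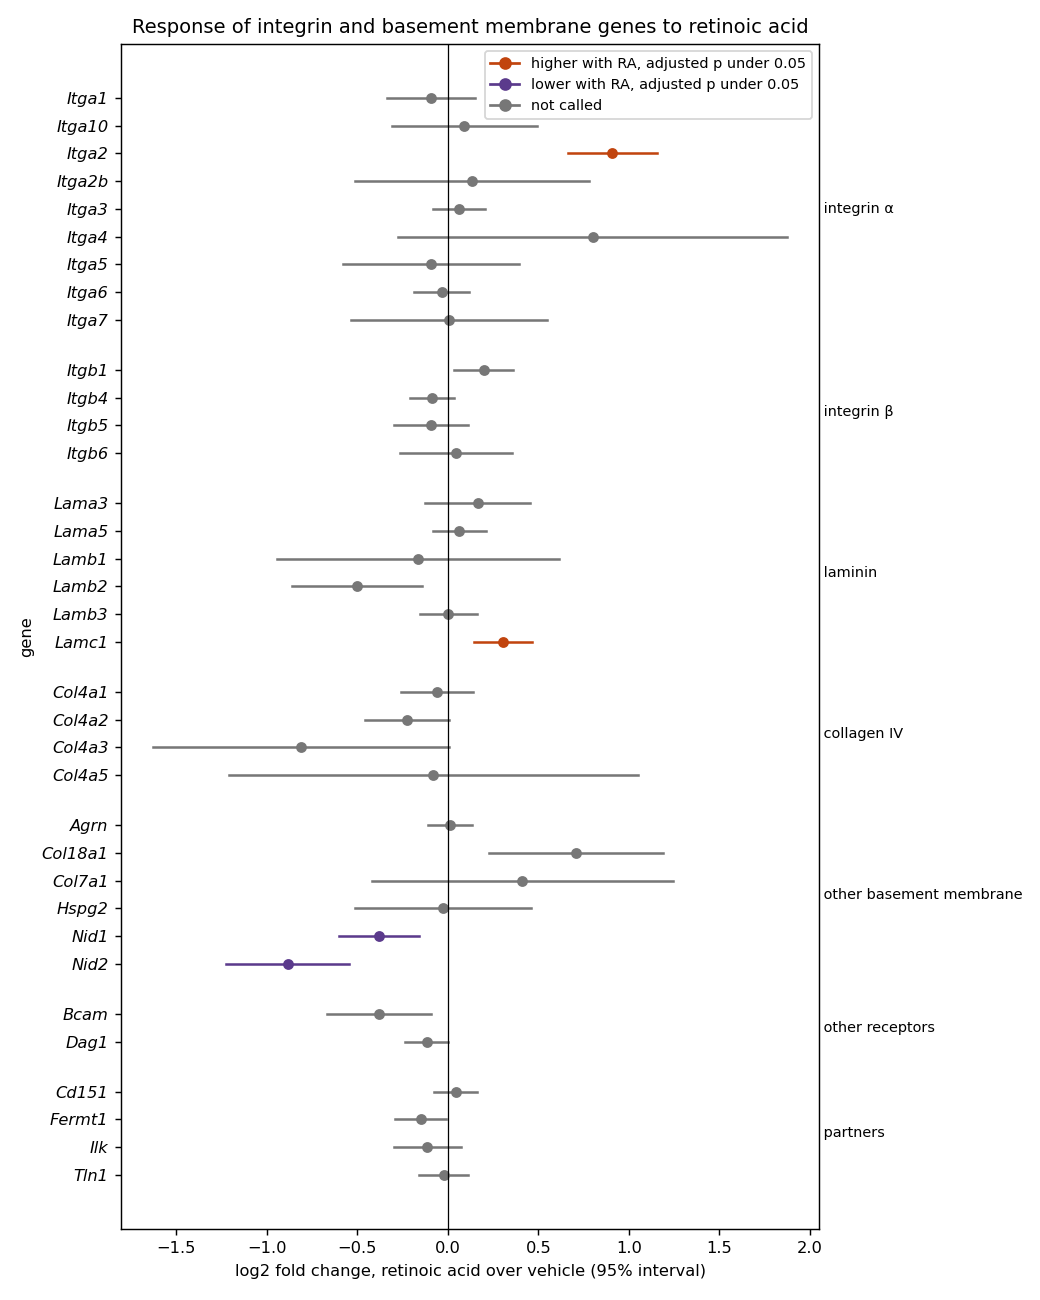
Log2 fold change of retinoic acid over vehicle (x axis) for 35 of the tested members (rows, by role), with 95% intervals from edgeR's fit. Of the called members, Itga2 and Lamc1 lie right of 0 and Nid1 and Nid2 left of it, and the 31 members in grey were not called.

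The libraries held 14919144 to 21833846 reads over genes. The members took 0.338% to 0.344% of these in retinoic acid libraries and 0.345% to 0.359% in vehicle libraries. Library 3 of each group stood apart from the other 4 on the second principal component (20% of the variance). Without both, 4 members were higher and 4 lower, of 922 and 734 genes in all. The calls added were Col18a1 and Itgb1, both higher, and Lamb2 and Col4a2, both lower. Leaving out retinoic acid library 3 alone added the same 4. Itga2 and Nid2 were called whichever single library was left out. Lamc1 lost its call without retinoic acid library 1 or 2 or vehicle library 2 or 3 (adjusted p 0.129, 0.0666, 0.0959 and 0.0539). Nid1 lost its call without retinoic acid library 1 or vehicle library 1 or 2 (adjusted p 0.151, 0.134 and 0.144).

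**Figure D2:**
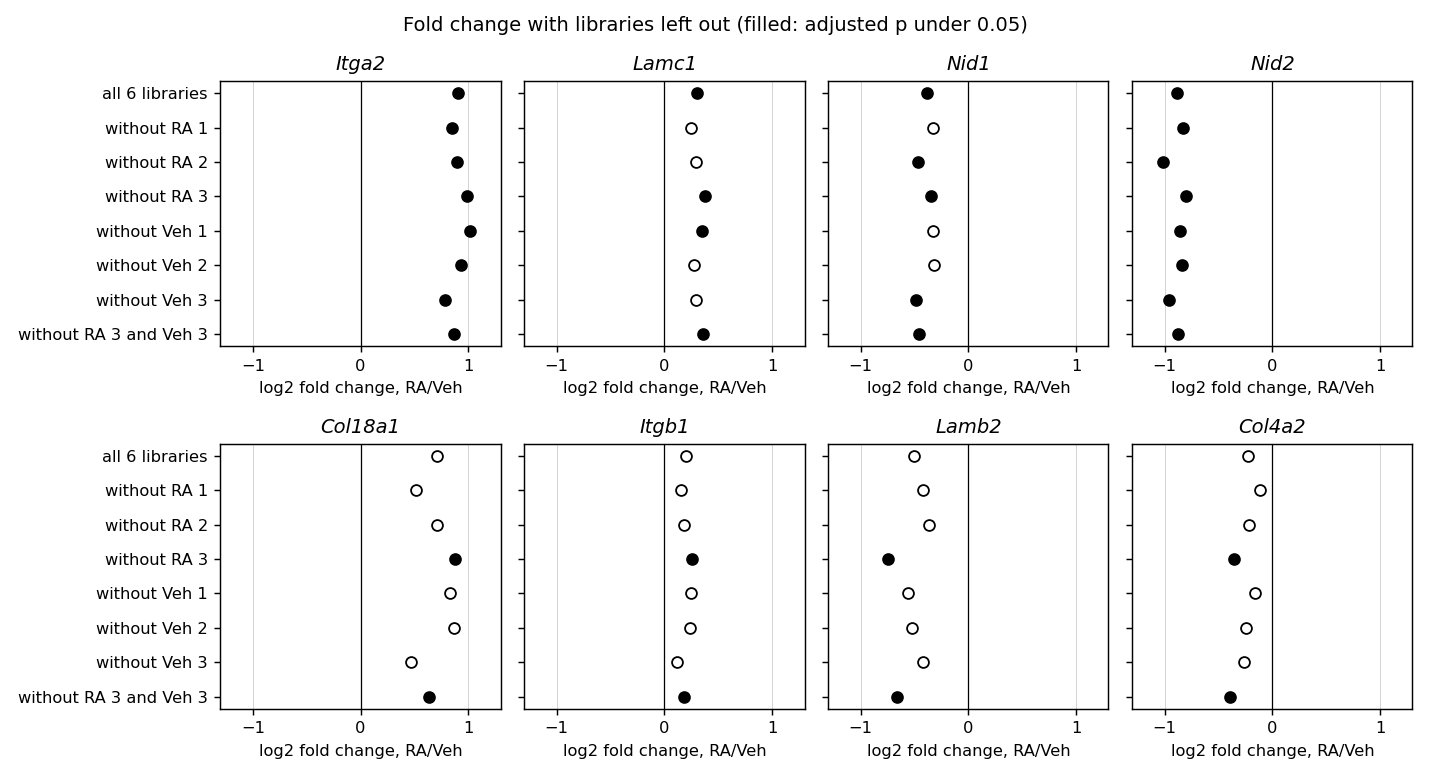
Log2 fold change of retinoic acid over vehicle (x axis) of 8 members with all libraries and with libraries left out (rows), filled where the adjusted p was under 0.05. Itga2 and Nid2 are filled in every row, Lamc1 and Nid1 in some, and the other 4 where retinoic acid library 3 was left out.

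Of the called members, RefSeq's promoter table (GRCm38.p6, the assembly also called mm10) has an entry for Itga2 and Nid1, so these show the DNA before the start of a gene that rose and of a gene that fell. Each is the 250 bases before RefSeq's start, 5′ to 3′ on the gene's strand: chr13:114932101-114932350 on the minus strand for Itga2 and chr13:13437352-13437601 on the plus strand for Nid1. In the count table Itga2 starts at 114932041, so its window does not adjoin that start, and the bases between were not searched. Capitals mark GGGCGG, a GC box of the kind Sp1 binds.
Itga2: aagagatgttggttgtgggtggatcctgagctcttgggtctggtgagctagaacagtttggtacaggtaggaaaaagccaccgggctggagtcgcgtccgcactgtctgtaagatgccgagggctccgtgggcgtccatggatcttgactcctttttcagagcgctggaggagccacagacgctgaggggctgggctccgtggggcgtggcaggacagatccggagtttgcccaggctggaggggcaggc
Nid1: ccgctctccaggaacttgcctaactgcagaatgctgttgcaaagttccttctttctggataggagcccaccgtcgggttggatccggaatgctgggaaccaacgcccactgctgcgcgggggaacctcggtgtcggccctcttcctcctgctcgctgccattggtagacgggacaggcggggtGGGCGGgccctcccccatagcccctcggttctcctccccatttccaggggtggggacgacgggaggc
Retinoic acid receptors bind paired half-sites, so both strands were searched for the half-site AGGTCA, for its variant AGTTCA, for the variant GGGTCA and for the variant GGTTCA, alone and as direct repeats with 1, 2 or 5 bases between them. The search for single half-sites also counts those inside repeats. Neither window held one of these letter strings, and GGGCGG was found 1 time, in Nid1. Among all 32851 windows of this length, 38.6% held a half-site and 32.7% held GGGCGG. Among the 44 windows of the 36 members with an entry, 17 held a half-site and 21 held GGGCGG. Direct repeats with 1, 2 and 5 bases between occurred in 0.164%, 0.174% and 0.0883% of all windows and in 0 of the 44.

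Levels of different genes were compared per kilobase of annotated exon, as CPM per kilobase, where CPM are reads per 1000000 after scaling each library by TMM. By this measure Itgb1, a β chain shared by many integrins, had the highest mean level of all members, at 129.6 with retinoic acid and 112.9 with vehicle. Next came Cd151, a tetraspanin that binds laminin-binding integrins, at 70.3 with retinoic acid and 68.3 with vehicle. Dag1, which encodes dystroglycan, had 62.7 with retinoic acid and 68.0 with vehicle. Fermt1 had 46.97 with retinoic acid and 52.15 with vehicle. Agrn, whose product links laminin to dystroglycan, had 48.7 with retinoic acid and 48.3 with vehicle. These levels were well above those of the network chains named here: Lamb3, a laminin β chain, had 15.3 in each group. The highest collagen IV chain, Col4a2, had 5.52 with retinoic acid and 6.45 with vehicle. The 13 members not tested all had a mean under 1 CPM over the 6 libraries (at most 0.574), and their highest value in any single library was 0.948 CPM.

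**Figure D3:**
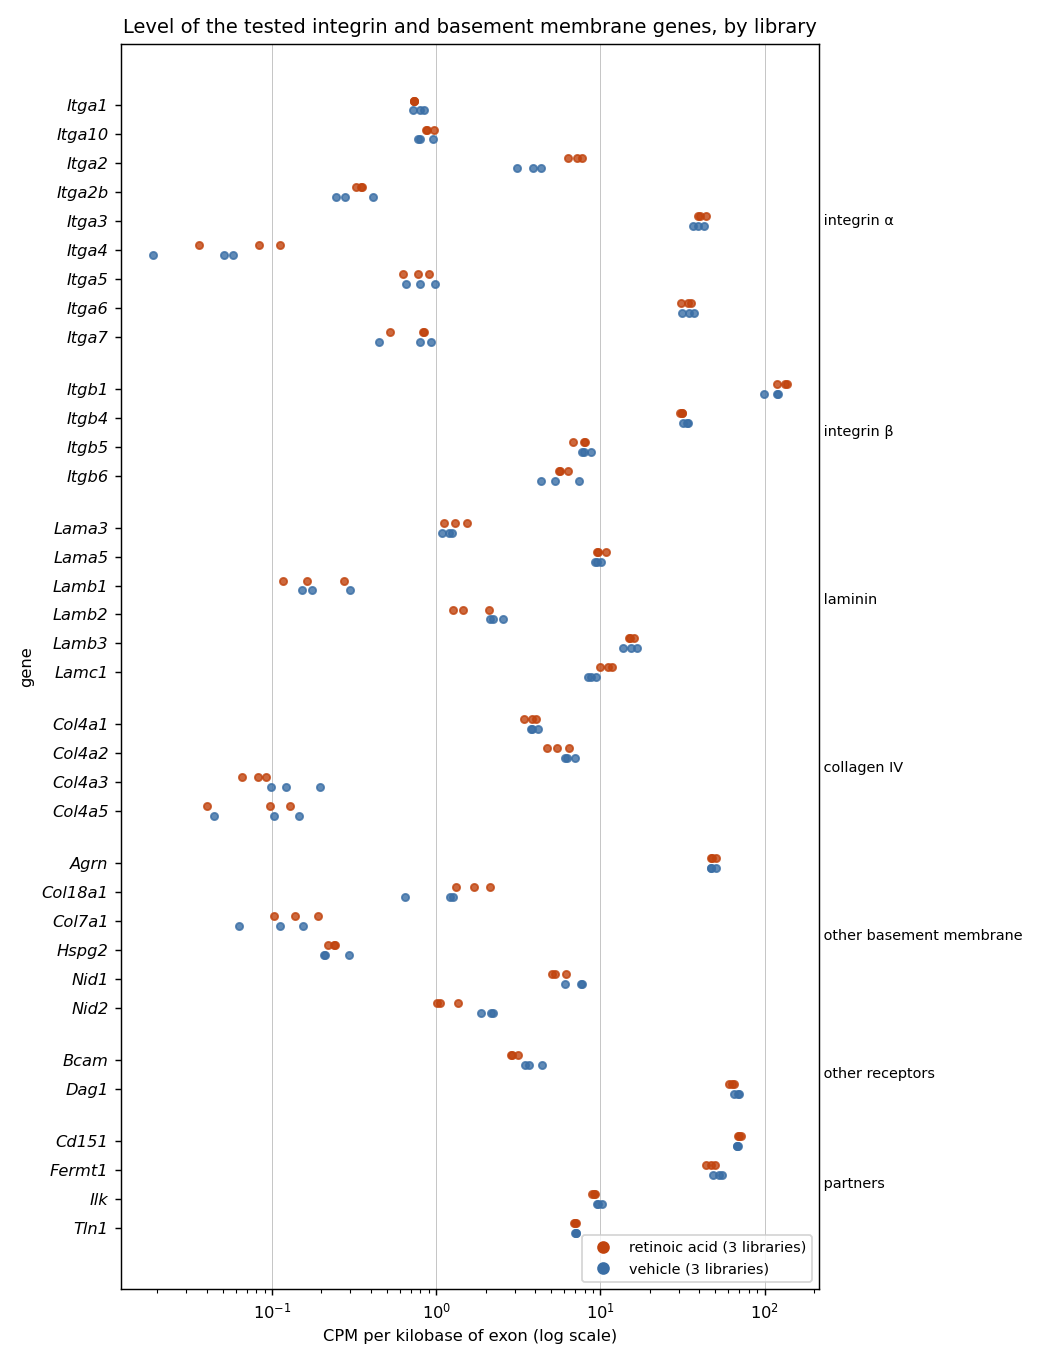
CPM per kilobase of exon (x axis, log scale) of 35 of the tested members (rows, by role), 1 point per library, with retinoic acid drawn above vehicle in each row. Itgb1 lies farthest right, and for most members the points of both groups cover the same range.

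Among the laminin chains, 7 of 11 were tested, 1 rose and 6 did not pass the test. Lamc1 encodes the γ chain of the most widespread laminins (ENSMUSG00000026478, mm10 chromosome 1, 153218922 to 153332786, minus strand). It had 97.2, 91.9 and 82.1 CPM in retinoic acid libraries 1, 2 and 3, against 77.7, 69.8 and 72.0 CPM in vehicle libraries 1, 2 and 3. The lowest retinoic acid library lay above the highest vehicle library. The means were 90.4 ± 7.67 CPM with retinoic acid and 73.2 ± 4.08 CPM with vehicle (SD, n = 3 each), a 1.24-fold difference (log2 fold change 0.305, SE 0.08, 95% interval 0.14 to 0.47, adjusted p 0.0199 by edgeR).

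Lama5, the main α chain of the mature gut epithelium, had 110.6, 108.9 and 123.9 CPM with retinoic acid, against 106.2, 114.9 and 107.9 CPM with vehicle (log2 fold change 0.06, 95% interval −0.08 to 0.21, adjusted p 0.67). Lama3, the α chain of the hemidesmosome laminin, had 14.1, 16.6 and 12.0 CPM with retinoic acid, against 13.4, 12.9 and 11.6 CPM with vehicle (log2 fold change 0.17, interval −0.12 to 0.46, adjusted p 0.548). Both sets of libraries overlapped. Per kilobase, Lama5 made up 88.0% ± 2.17 of the α chain level with retinoic acid and 88.6% ± 0.477 with vehicle (SD, n = 3 each), and Lama3 most of the rest. The α chains Lama1, Lama2 and Lama4 were under the filter, with 8, 8 and 10 reads over the retinoic acid libraries and 6, 8 and 24 over the vehicle libraries. Among γ chains, Lamc3 had 16 reads over each group.

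Of the β chains, Lamb3, a partner of Lama3, held 89.5% ± 2.26 of the level per kilobase with retinoic acid and 85.8% ± 1.93 with vehicle (SD, n = 3 each). It had 105.1, 100.3 and 98.2 CPM with retinoic acid, against 101.9, 110.0 and 91.0 CPM with vehicle (log2 fold change 0.00, interval −0.15 to 0.16, adjusted p 0.987). Lamb2, a β chain of Lama5-containing laminins, had 8.81, 7.73 and 12.8 CPM with retinoic acid, against 12.9, 13.5 and 15.5 CPM with vehicle. The retinoic acid libraries all lay below the vehicle libraries, library 3 of the treated group only narrowly. The log2 fold change was −0.50 (interval −0.86 to −0.14, adjusted p 0.0836), and −0.74 without retinoic acid library 3 (adjusted p 0.00156). Lamb1, the β chain that joins Lamc1 in the commonest laminins, had 2.72, 1.63 and 1.16 CPM with retinoic acid, against 1.73, 2.96 and 1.51 CPM with vehicle. With 105 reads over the retinoic acid libraries and 103 over the vehicle libraries, its interval for the log2 fold change ran from −0.94 to 0.62 (adjusted p 0.854).

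**Figure D4:**
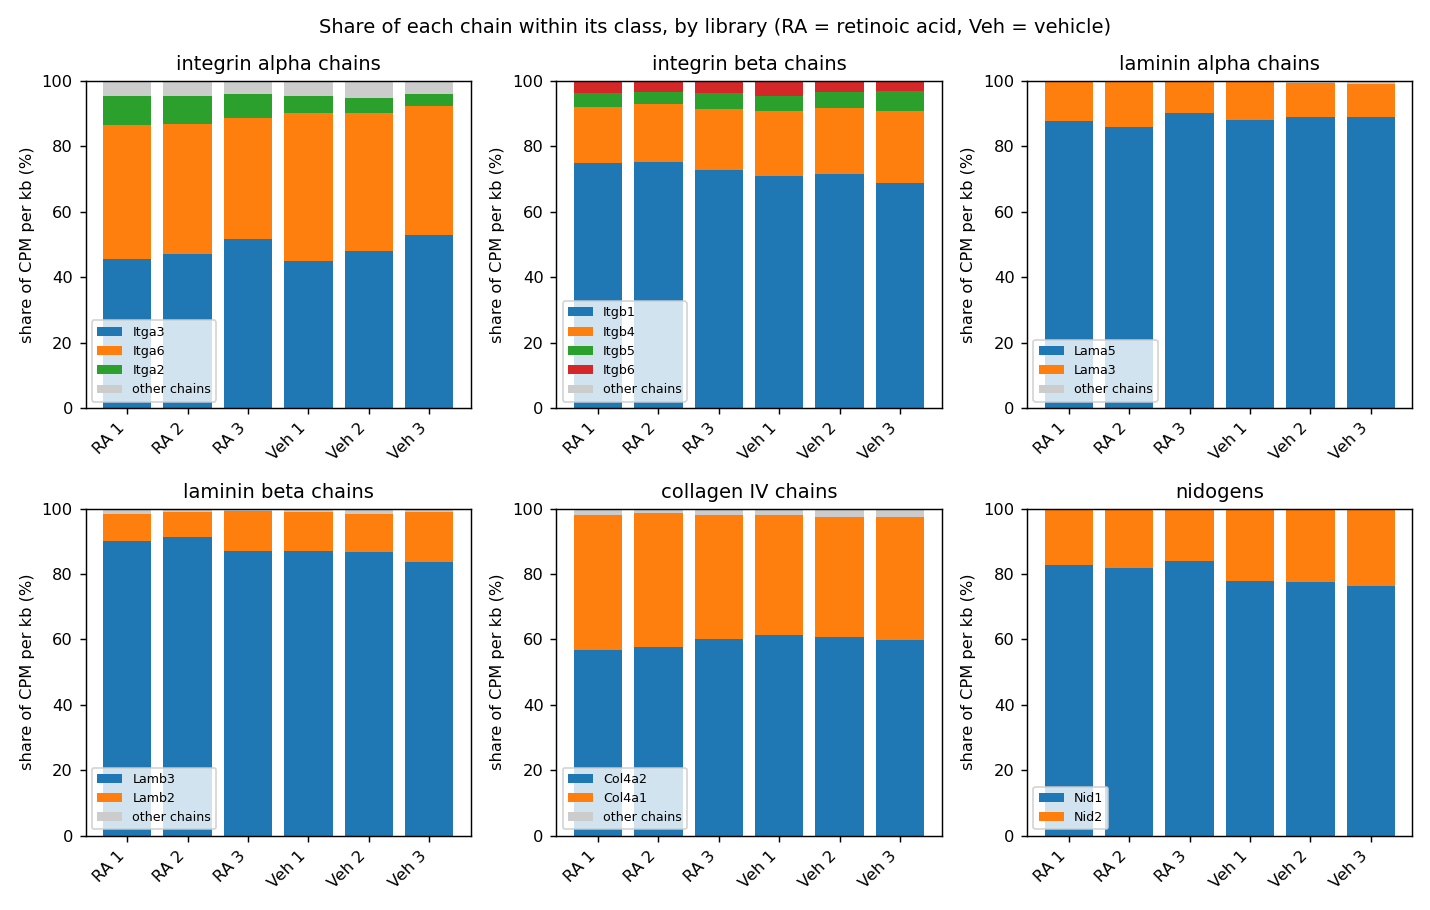
Share of CPM per kilobase (y axis, percent) held by each chain within its class, 1 bar per library, with the 3 retinoic acid libraries left of the 3 vehicle libraries. Lama5 and Lamb3 hold most of their laminin classes in every library, while the share of Itga2 is larger, and that of Nid2 smaller, in every retinoic acid library than in any vehicle library.

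For collagen IV, the network-forming collagen of basement membranes, 4 of 5 chains were tested and 0 were called by edgeR, by DESeq2 or by limma-voom, with 0 at an unadjusted p under 0.05. Col4a1 and Col4a2 share one promoter region on chromosome 8, where their spans overlap by 22 bases on opposite strands, and their products form the common trimer. Col4a1 had 25.6, 28.5 and 30.2 CPM with retinoic acid, against 31.1, 28.1 and 28.6 CPM with vehicle (log2 fold change −0.06, interval −0.26 to 0.14, adjusted p 0.778). Col4a2 had 31.1, 35.9 and 42.7 CPM with retinoic acid, against 46.4, 41.3 and 40.4 CPM with vehicle (log2 fold change −0.23, interval −0.46 to 0.00, adjusted p 0.241). In both genes the groups overlapped, with retinoic acid library 1 lowest. Without retinoic acid library 3, Col4a2 had a log2 fold change of −0.36 and an adjusted p of 0.0167. The chains Col4a3 and Col4a5 of specialised membranes averaged 0.793 and 0.596 CPM with retinoic acid and 1.39 and 0.659 CPM with vehicle. For Col4a3 all retinoic acid libraries lay below the vehicle libraries, on 44 and 69 reads (adjusted p 0.236). Col4a4 had 1 read with retinoic acid and 4 with vehicle.

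Both nidogens, which bridge the laminin and collagen IV networks, fell. Nid2 (ENSMUSG00000021806, mm10 chromosome 14, 19751257 to 19811787, plus strand) had 5.44, 7.05 and 5.21 CPM with retinoic acid, against 11.2, 11.5 and 9.67 CPM with vehicle. The groups did not overlap, and the means were 5.90 ± 1.01 CPM with retinoic acid and 10.8 ± 0.978 CPM with vehicle (SD, n = 3 each). The log2 fold change was −0.885 (SE 0.16, interval −1.22 to −0.55, adjusted p 0.00249), which is 0.542 of the vehicle level, on 323 reads with retinoic acid and 535 with vehicle. Nid2 shares 386 bases with Rtraf on the other strand, and whether counting used strand is not given in the sources used here. Rtraf averaged 17.2 CPM with retinoic acid and 16.4 CPM with vehicle (log2 fold change 0.06, adjusted p 0.826).

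Nid1 (ENSMUSG00000005397, mm10 chromosome 13, 13437602 to 13512275, plus strand) had 35.4, 42.7 and 36.5 CPM with retinoic acid, against 53.1, 53.4 and 42.2 CPM with vehicle. The groups overlapped, since retinoic acid library 2 lay just above vehicle library 3. The means were 38.2 ± 3.95 CPM with retinoic acid and 49.6 ± 6.38 CPM with vehicle (SD, n = 3 each), a log2 fold change of −0.38 (SE 0.10, interval −0.60 to −0.16, adjusted p 0.0313). Nid2 made up 17.1%, 18.1% and 16.1% of the nidogen level per kilobase in retinoic acid libraries, against 22.1%, 22.4% and 23.5% in vehicle libraries. The log2 ratio of Nid2 to Nid1 averaged −2.70 with retinoic acid and −2.20 with vehicle. This ratio is 1 of 5 chosen after their values were seen. Each of the 5 had an exact two-sided permutation p of 0.1 (also 0.1 adjusted over the 5), the smallest that 3 libraries against 3 allow, so none could pass the threshold.

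Nidogens are known as products of fibroblasts as well as of epithelium. Of 12 fibroblast and smooth muscle markers, all in the table, 10 averaged under 1 CPM in each group and 2 were tested (Tagln and Pdgfrb). By edgeR, DESeq2 and limma-voom 0 of these 2 were called, and 1, Pdgfrb, had an unadjusted p under 0.05. Pdgfrb averaged 2.75 ± 0.871 CPM with retinoic acid and 4.11 ± 0.653 CPM with vehicle (SD, n = 3 each; log2 fold change −0.56, adjusted p 0.219), the same direction as the nidogens. Tagln averaged 4.80 ± 0.954 CPM with retinoic acid and 5.24 ± 0.831 CPM with vehicle (−0.11, adjusted p 0.817). Summed over the 12, they took 7.19 to 9.55 CPM in retinoic acid libraries and 10.1 to 12.4 CPM in vehicle libraries, which do not overlap. In every library most of this sum was Tagln and Pdgfrb, neither of them called, so it says little about the other markers. Of the 10 low markers, Col1a1 had 14 reads over the retinoic acid libraries and 32 over the vehicle libraries, Col3a1 had 2 and 2, and Pdgfra had 4 and 12. The part of these cells in the fall of the nidogens was not tested.

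Of the other membrane and anchoring proteins, Col18a1, whose product releases endostatin, had 14.9, 12.0 and 9.20 CPM with retinoic acid, against 8.55, 8.88 and 4.54 CPM with vehicle. All retinoic acid libraries lay above the vehicle libraries, yet the adjusted p was 0.0662 (log2 fold change 0.71, SE 0.22, interval 0.23 to 1.19). DESeq2 called it, at an adjusted p of 0.0345, as did the fit without retinoic acid library 3, at 0.00421. In the authors' deposited table, also from DESeq, it is not among the members with an FDR under 0.05. Its span overlaps that of Slc19a1 on the other strand by 8825 bases, and Slc19a1 had a log2 fold change of −0.09 (adjusted p 0.5). Agrn had 446.6, 439.8 and 471.0 CPM with retinoic acid, against 435.8, 438.5 and 470.7 CPM with vehicle, and the 2 groups covered nearly the same range (adjusted p 0.93). Hspg2, which encodes perlecan, averaged 3.34 CPM with retinoic acid and 3.39 CPM with vehicle (adjusted p 0.965). Col7a1, the collagen of anchoring fibrils, averaged 1.49 CPM with retinoic acid and 1.13 CPM with vehicle (adjusted p 0.613). Col17a1, the hemidesmosome collagen of skin, had 2 reads with retinoic acid and 3 with vehicle, while Itgb4, its partner in hemidesmosomes, was among the highest members.

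**Figure D5:**
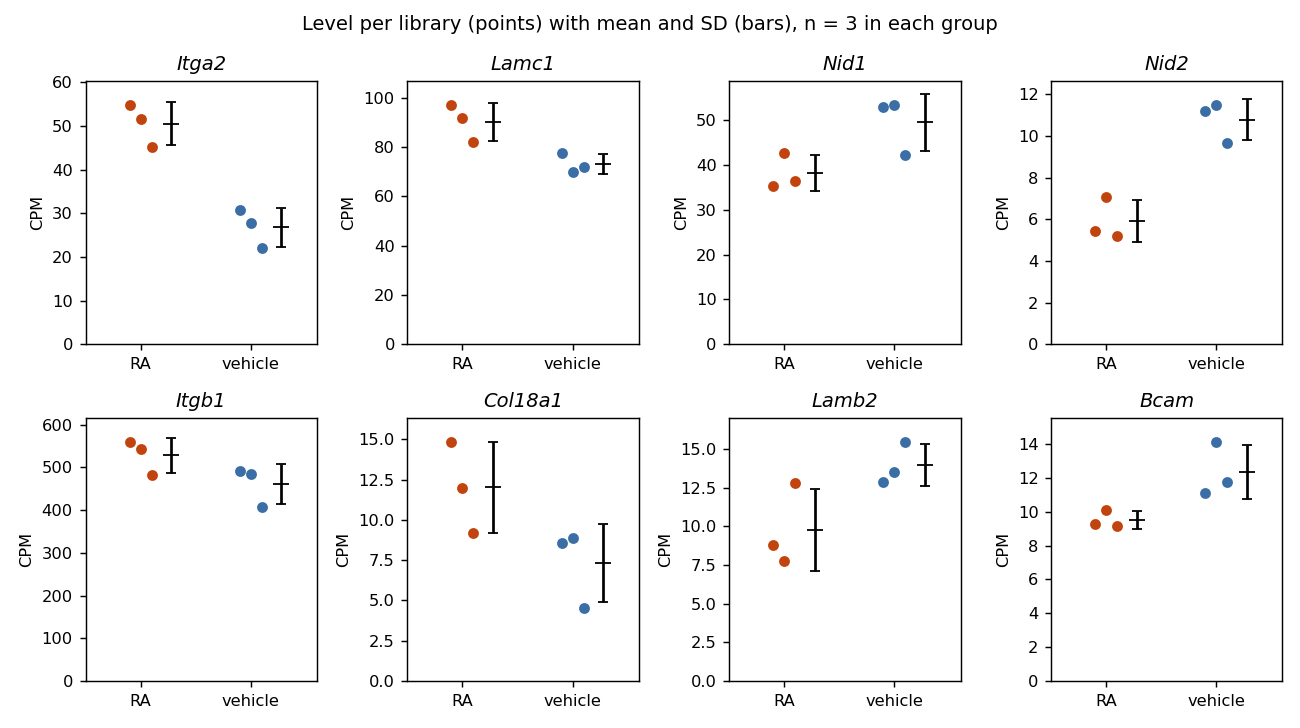
CPM (y axis, from 0) of 8 members in each retinoic acid library (left in each panel) and vehicle library (right), with the mean and SD of 3 libraries beside the points. Itga2, Lamc1 and Col18a1 show retinoic acid libraries all above the vehicle libraries, Nid2, Lamb2 and Bcam all below, and Nid1 and Itgb1 overlap.

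Of the integrin α chains, 9 of 12 were tested, 1 rose and 8 did not pass the test. Itga2 encodes the α chain of a collagen and laminin receptor found on epithelia and platelets (ENSMUSG00000015533, mm10 chromosome 13, 114835916 to 114932041, minus strand). It had 54.8, 51.5 and 45.1 CPM in retinoic acid libraries 1, 2 and 3, against 30.8, 27.7 and 22.0 CPM in vehicle libraries 1, 2 and 3. The lowest retinoic acid library was well above the highest vehicle library. The means were 50.5 ± 4.94 CPM with retinoic acid and 26.8 ± 4.48 CPM with vehicle (SD, n = 3 each), a 1.88-fold difference (log2 fold change 0.91, SE 0.11, interval 0.66 to 1.15, adjusted p 0.000139). With a library left out the log2 fold change ranged from 0.79 to 1.02.

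Itga1, the α chain of another collagen receptor, lies 26.0 kb from Itga2 with no other gene of the table between. It averaged 13.7 ± 0.0298 CPM with retinoic acid and 14.6 ± 1.15 CPM with vehicle (SD, n = 3 each; adjusted p 0.706). The log2 ratio of Itga2 to Itga1 averaged 1.88 with retinoic acid and 0.87 with vehicle, a 2.02-fold shift. Itga1 contains the small gene Pelo on the same strand, so reads there could belong to either. Pelo was far higher than Itga1, at 81.7 CPM with retinoic acid and 77.2 CPM with vehicle (adjusted p 0.624 by edgeR). The level of Itga1 and this ratio are therefore uncertain.

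The laminin-binding chains Itga3 and Itga6 made up most of the α chain level per kilobase. Itga3 held 48.1% ± 3.32 with retinoic acid and 48.6% ± 4.13 with vehicle, and Itga6 held 39.2% ± 2.25 and 42.3% ± 3.07 (SD, n = 3 each). Itga2 held 8.27% ± 0.724 with retinoic acid and 4.63% ± 0.73 with vehicle. Itga3 had 223.2, 231.6 and 249.8 CPM with retinoic acid, against 208.8, 224.2 and 242.4 CPM with vehicle (log2 fold change 0.06, interval −0.08 to 0.21, adjusted p 0.672). Itga6 had 320.6, 307.8 and 280.3 CPM with retinoic acid, against 334.2, 311.8 and 283.7 CPM with vehicle (log2 fold change −0.03, interval −0.18 to 0.12, adjusted p 0.846). Both overlapped between the groups, and both intervals leave out a change of the size seen for Itga2.

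The fibronectin-binding chains Itga4 and Itga5 were low, at 1.08 and 3.79 CPM with retinoic acid and 0.594 and 4.00 CPM with vehicle (adjusted p 0.402 and 0.865). Itga7, a laminin-binding chain best known from muscle, averaged 5.95 CPM with retinoic acid and 5.87 CPM with vehicle. Itga10, a collagen-binding chain of cartilage, averaged 4.69 CPM with retinoic acid and 4.38 CPM with vehicle, a value that is uncertain because part of its span is shared. Itga2b, the platelet chain, averaged 1.86 CPM with retinoic acid and 1.70 CPM with vehicle. None of these passed the test. Itga8, Itga9 and Itga11 were under the filter, with 10, 37 and 19 reads over the retinoic acid libraries and 8, 23 and 5 over the vehicle libraries.

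Of the integrin β chains, 4 of 8 were tested. EdgeR's main fit, DESeq2 and limma-voom called 0 of them, while 1 had an unadjusted p under 0.05. That one was Itgb1, with 560.5, 542.8 and 482.8 CPM with retinoic acid, against 491.6, 484.1 and 407.0 CPM with vehicle. Retinoic acid library 3 fell among the vehicle libraries. The log2 fold change was 0.20 (SE 0.08, interval 0.03 to 0.36, adjusted p 0.14), and it was called without retinoic acid library 3 (0.26, adjusted p 0.0155). EdgeR also called Itgb1 without a filter on low counts (adjusted p 0.0135) and with replicate number as a block (adjusted p 0.0025). Itgb4, the partner of Itga6 in hemidesmosomes, had 221.0, 221.3 and 214.8 CPM with retinoic acid, against 238.8, 235.8 and 223.5 CPM with vehicle. All retinoic acid libraries lay below the vehicle libraries, by a log2 fold change of −0.09 (interval −0.21 to 0.03, adjusted p 0.415). Per kilobase, Itgb1 made up 74.2% ± 1.34 of the β chain level with retinoic acid and 70.4% ± 1.46 with vehicle, and Itgb4 17.9% ± 0.824 and 20.8% ± 1.06 (SD, n = 3 each).

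Itgb5 and Itgb6, which pair with the αv chain, averaged 27.0 and 41.8 CPM with retinoic acid and 28.9 and 40.5 CPM with vehicle (adjusted p 0.644 and 0.904). Their partner Itgav, which the choice by symbol did not take, had 67.7, 68.1 and 56.1 CPM with retinoic acid, against 59.2, 53.5 and 51.4 CPM with vehicle (adjusted p 0.147). The leukocyte and platelet chains Itgb2, Itgb3 and Itgb7, with the αv partner Itgb8, were under the filter. They had 1, 8, 24 and 7 reads over the retinoic acid libraries and 4, 4, 36 and 13 over the vehicle libraries.

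Of the laminin receptors outside the integrin family, 0 of 2 were called by edgeR, DESeq2 or limma-voom and 1, Bcam, had an unadjusted p under 0.05. Bcam, an immunoglobulin-like receptor for Lama5-containing laminins, had 9.28, 10.1 and 9.15 CPM with retinoic acid, against 11.1, 14.2 and 11.8 CPM with vehicle (log2 fold change −0.38, SE 0.13, interval −0.67 to −0.09, adjusted p 0.102). Dag1 had 384.6, 399.4 and 412.1 CPM with retinoic acid, against 414.7, 443.0 and 438.3 CPM with vehicle (log2 fold change −0.12, interval −0.24 to 0.00, adjusted p 0.248). In both genes every retinoic acid library lay below every vehicle library.

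Of the 4 integrin partners, 0 were called by edgeR's main fit, DESeq2 or limma-voom and 1, Fermt1, had an unadjusted p under 0.05. With replicate number as a block, edgeR called Fermt1 (adjusted p 0.0228). Fermt1, the epithelial kindlin that activates integrins from inside the cell, had 267.9, 249.8 and 285.4 CPM with retinoic acid, against 302.5, 277.7 and 311.4 CPM with vehicle (log2 fold change −0.15, interval −0.29 to −0.01, adjusted p 0.197). Cd151 had 192.2, 188.9 and 197.0 CPM with retinoic acid, against 184.9, 187.0 and 189.5 CPM with vehicle (log2 fold change 0.04, interval −0.08 to 0.16, adjusted p 0.731). The groups overlapped in both. Tln1, the talin that ties integrins to actin, averaged 68.5 CPM with retinoic acid and 69.6 CPM with vehicle (adjusted p 0.886). Ilk, a scaffold of the same complex, averaged 24.9 CPM with retinoic acid and 27.0 CPM with vehicle (adjusted p 0.51), with every retinoic acid library below every vehicle library. Tln1 and Ilk overlap other genes on the opposite strand.

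In the authors' deposited table, 4 members have an FDR under 0.05, and they are the 4 called here. The authors' deposited table gives log2 fold changes of 0.92 for Itga2 (FDR 4.66e-11) and 0.31 for Lamc1 (FDR 0.0096). For Nid2 and Nid1 the authors' deposited table gives −0.88 (FDR 0.000595) and −0.37 (FDR 0.025).

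Around these genes, 8 lists of other adhesion and matrix genes held 136 genes, of which 102 were tested. Of these, 10 (9.8%) were higher and 7 (6.86%) lower with retinoic acid, against 5.37% and 4.09% of all genes tested. Matrix proteases and their inhibitors had 4 higher and 1 lower of 11 tested (median log2 fold change 0.10, against −0.01 over all genes). Plat, the tissue plasminogen activator, had 149.0, 117.6 and 121.6 CPM with retinoic acid, against 22.7, 24.2 and 33.2 CPM with vehicle. The groups were far apart, at a 4.87-fold difference (log2 fold change 2.28, SE 0.13, adjusted p 4.24e-08). Mmp15, a membrane-bound metalloprotease, averaged 596.4 ± 51.1 CPM with retinoic acid and 390.0 ± 16.8 CPM with vehicle (1.53-fold, adjusted p 3.58e-05). Mmp7, the matrilysin of Paneth cells, averaged 268.5 ± 12.6 CPM with retinoic acid and 173.9 ± 36.8 CPM with vehicle (1.54-fold, adjusted p 0.00244). Mmp14, named after its value was seen, was 1.48-fold higher (adjusted p 0.0409), and Timp2, an inhibitor of metalloproteases, was lower (log2 fold change −0.54, adjusted p 0.0145). Leaving out 1 library ended the call of Mmp14 in 4 of 6 cases and that of Timp2 in 3 of 6, and those of Plat, Mmp15 and Mmp7 in 0 of 6.

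Among other matrix proteins, 1 was higher and 2 lower of 11 tested, with a median log2 fold change of −0.34. Fn1, which encodes fibronectin, averaged 12.0 ± 3.39 CPM with retinoic acid and 20.2 ± 1.86 CPM with vehicle (SD, n = 3 each; log2 fold change −0.74, adjusted p 0.0104). Fibroblasts are a major source of fibronectin, and the part of such cells, whose marker sums are given with the nidogens, was not tested here either. Npnt, a basement membrane ligand of integrins, was lower (−0.34, adjusted p 0.042) and Tinagl1, a matricellular protein, higher (0.36, adjusted p 0.0275). Each lost its call in 4 of the 6 fits with a library left out. Of 12 tested genes for collagen folding and crosslinking, 2 were higher. Plod2, a lysyl hydroxylase, averaged 6.10 ± 0.613 CPM with retinoic acid and 2.94 ± 0.296 CPM with vehicle (2.08-fold, adjusted p 0.00276). P4hb, a subunit of prolyl hydroxylase, was 1.18-fold higher (adjusted p 0.0351), a call that ended in 4 of the 6 fits with a library left out.

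Of 26 tested adaptors of integrin adhesions, 1 was higher and 3 lower. Tln2, the second talin, averaged 18.5 ± 2.62 CPM with retinoic acid and 28.8 ± 3.45 CPM with vehicle (SD, n = 3 each; log2 fold change −0.64, adjusted p 0.00365), and kept its call whichever library was left out. The actin crosslinker Actn4 was higher (0.24, adjusted p 0.0186), and Actn1 (−0.20, adjusted p 0.0374) and the tensin Tns3 (−0.28, adjusted p 0.0393) were lower. Leaving out a library ended the call of Actn4 in 3 of 6 cases, of Actn1 in 6 of 6 and of Tns3 in 5 of 6. Tspan1 was the only one of 13 tested tetraspanins called, at 276.7 ± 16.2 CPM with retinoic acid and 214.2 ± 12.3 CPM with vehicle (1.29-fold, adjusted p 0.00216). Of 17 tested genes for the glycans of dystroglycan, 1 was higher. Of 10 tested other matrix receptors, 1 was called: the glypican Gpc1, lower at 1.39 CPM with retinoic acid and 2.89 CPM with vehicle (adjusted p 0.0286). It lost its call in 5 of 6 cases with a library left out, and DESeq2 did not call it. Of the α chains outside the choice by symbol, 2 were tested and 0 called by edgeR, DESeq2 or limma-voom, with 1 at an unadjusted p under 0.05 (Itgav).

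The organoids carried the markers of their labelled tissue. The 8 epithelial markers summed to 11500 to 12300 CPM in retinoic acid libraries and 11500 to 12200 CPM in vehicle libraries. Of these 8, edgeR and limma-voom called 0, DESeq2 called 2, and 4 had an unadjusted p under 0.05. The 8 crypt stem cell markers summed to 793 to 851 CPM in retinoic acid libraries and 1020 to 1110 CPM in vehicle libraries, and 4 of them fell (Lgr5, Olfm4, Smoc2 and Rgmb). By edgeR, Ascl2, Sox9 and Axin2 were not called (log2 fold change −0.07, −0.11 and −0.17, adjusted p 0.79, 0.467 and 0.101). Aqp4, with a fitted change in the other direction, was not called either (0.26, adjusted p 0.394). Lgr5, the receptor that marks crypt stem cells, averaged 81.7 ± 15.0 CPM with retinoic acid and 126.5 ± 1.38 CPM with vehicle (SD, n = 3 each; adjusted p 0.000933). The 4 called stem cell markers thus fell with the treatment, as the nidogens did, while Itga2 and Lamc1 rose. The part of stem cells in the results for these members was not tested. Endothelial markers summed to 2.72 to 5.15 CPM with retinoic acid and 4.22 to 7.17 CPM with vehicle. Glial and neuronal markers summed to 3.52 to 5.26 CPM with retinoic acid and 4.8 to 5.92 CPM with vehicle. Leukocyte and platelet markers summed to 27.6 to 31.4 CPM with retinoic acid and 24.6 to 29.6 CPM with vehicle. Most of that last sum was Csf1r, while Ptprc, found on all leukocytes, had 0 reads with retinoic acid and 2 with vehicle. Cd68, a lysosomal protein of macrophages, was the 1 called of 3 tested in that list. It averaged 7.28 ± 1.42 CPM with retinoic acid and 4.31 ± 0.371 CPM with vehicle (SD, n = 3 each; 1.69-fold, adjusted p 0.0216), and DESeq2 and limma-voom called it too. It lost its call without retinoic acid library 1 or 2 or vehicle library 1 or 2 (adjusted p 0.107, 0.0882, 0.0913 and 0.0687).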

How the data were processed

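Libraries were directional and poly(A)-selected, per the labels' protocols. The authors deposited 1 table with a raw read count per gene and library, and, per the file headers, their DESeq p-value and FDR and their log2 fold change. Reads were placed on mm10, per the submitters' processing notes. For the aligner, the annotation and the use of strand, details were not given in the sources used here.

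Counts were tested with edgeR 4.0.16 in R 4.3.3 (filterByExpr, 13700 genes; TMM factors 0.978 to 1.023; glmQLFit and glmQLFTest, treatment only, two-sided, Benjamini-Hochberg threshold 0.05). SEs and 95% intervals come from that fit, not from the printed SDs. The biological coefficient of variation was 7.81%. Exon lengths came from GENCODE vM21, as the union of the exons of all of a gene's transcripts, which can exceed the length of 1 transcript. Levels and shares per kilobase depend on this length, which was found by gene ID for all 49 members. Of these, 32 have the same start and end there as in the count table. For the others the length may differ from that of the gene model counted. Col4a6, which the choice by symbol also names, has no row in the count table. Alternatives used DESeq2 1.42.0, limma-voom 3.58.1, other scalings and filters, a replicate block, and fits with libraries left out. No 2 libraries matched within sampling noise (chi-square per gene 3.96 to 10.53 within groups).

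Members, lists and tests were chosen with earlier results of these data known. Values of every library are given for called members and a fixed set, and up to 4 called genes with the smallest p are named from each other list. Col18a1, Lamb2, Ilk, the 5 ratios and further low-level members were named after their values were seen. A few genes that these rules take are not reported here.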

Additional observations from a re-analysis of the deposited data

How the results depend on the processing

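Itga2 and Nid2 kept their calls in all 13 alternatives. Over 37 genes, which are the called members, the fixed set and the genes named by rule from the other lists with a few members near the threshold, 407 values kept their direction and side of the threshold, 49 lost a call, 16 gained one and 9 changed sign. Without a filter on low counts 4 members were higher and 3 lower, of 968 and 752 genes in all. The calls added by this setting were Col18a1 and Itgb1, both higher, and Lamb2, lower. With the replicate block 4 members were higher and 4 lower (1224 and 1052 of all genes), and 11 genes of the other lists were lower. The block added Col18a1, Itgb1, Lamb2 and Fermt1. The replicate numbers were not taken as pairs in the main fit. Deviations of same-numbered libraries correlated at 0.128, 0.0975 and 0.258. The second is under 0.1, though each library correlated best with its own number, so pairing was not excluded. Without library 3 of both groups, an alternative chosen after seeing the data, 4 members were higher and 4 lower. The cause of these differences was not tested.

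With 1 library left out, 1 to 4 members were higher and 1 to 4 lower, 443 to 978 and 289 to 787 of all genes, and 6 to 13 and 2 to 6 of the other lists. Genes near no change turned sign. The log2 fold change ranged from −0.118 to 0.0079 for Col4a1, −0.092 to 0.023 for Itga6, −0.588 to 0.189 for Lamb1 and −0.065 to 0.071 for Lamb3. Without library 3 of both groups it was −0.0095 for Lama5 and −0.043 for Lamb3. With 3 libraries a group, low members such as Lamb1 have wide intervals, and a missed threshold there does not show equal levels.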
